A study of Mus musculus with 9 samples.

Results

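The genes described here encode the subunits of the receptors for glutamate and GABA, the main excitatory and inhibitory transmitters of the brain. They were taken by gene symbol, as every locus named Gria, Grik, Grid, Grin, Grm, Gabra, Gabrb, Gabrd, Gabre, Gabrg, Gabrp, Gabrq, Gabrr or Gabbr. This gave 48 of 27095 loci. Of these, 47 encode receptor subunits, and 1, whose symbol begins the same way, encodes a protein that binds the delta receptor. A mean of at least 1 FPKM over the groups was reached by 34 of the 48 genes, against 15548 of all loci, and the other 14 were low in all groups. FPKM are fragment counts divided by the exon length and by the depth of the library.

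RNA was sequenced from the brains of 9 wild-type C57BL/6 mouse fetuses on gestational day 17 (GD17), in 3 groups of 3. All had dams that were injected intraperitoneally on gestational day 7, the control dams with vehicle and the others with 2.9 g/kg EtOH. EtOH-exposed fetuses with ocular and craniofacial defects are called affected, and EtOH-exposed fetuses without them unaffected. Fetal brain is the tissue named in the labels, whereas the methods name the cortex and the substrain C57BL/6J. The grouping into affected and unaffected was made within the exposed fetuses by their appearance, so it is not a randomised treatment. The deposited table holds 1 FPKM per group and locus, taken by the authors' software over the 3 animals. No value therefore carries an error between animals, no test was made, and every difference below describes these 3 group values only. Fold changes are given on the log2(FPKM + 0.1) scale.

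Ionotropic glutamate receptors are ion channels of 3 major families, named after the agonists AMPA, kainate and NMDA, with the delta receptors as a small related family. AMPA and kainate receptors carry fast excitation, NMDA receptors admit calcium and need glycine or D-serine beside glutamate, and metabotropic glutamate receptors act through G proteins. GABA-A receptors are chloride channels, most often built from alpha, beta and gamma subunits, while GABA-B receptors are G protein-coupled and need both of their subunits to reach the surface and signal. In the fetal brain GABA can depolarise neurons, since their internal chloride is high, and subunits are exchanged as neurons mature.

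The promoters of 4 receptor genes are shown because these genes had some of the largest differences between affected offspring and the other groups, with Gabrg1 and Gria4 lower and Grik3 and Grm2 higher. Each is the 250 bases before a start site in the RefSeq table (GRCm38.p6), 5′ to 3′ on the strand of the gene, and none overlaps an annotated exon. Capitals mark GC boxes (GGGCGG or its reverse complement CCGCCC) and, in Grm2, the left part of the binding motif of the repressor REST (TTCAGCACC or GGTGCTGAA). TATAAA was searched as well, on both strands, and none of the motifs overlapped another of a different kind. The REST half-site was chosen after the Grm2 sequence had been seen. The sequences lie at chr5:70842618-70842867 (minus strand) for Gabrg1, chr9:4796235-4796484 (minus) for Gria4, chr4:125490446-125490695 (plus) for Grik3 and chr9:106656110-106656359 (minus) for Grm2.
Gabrg1: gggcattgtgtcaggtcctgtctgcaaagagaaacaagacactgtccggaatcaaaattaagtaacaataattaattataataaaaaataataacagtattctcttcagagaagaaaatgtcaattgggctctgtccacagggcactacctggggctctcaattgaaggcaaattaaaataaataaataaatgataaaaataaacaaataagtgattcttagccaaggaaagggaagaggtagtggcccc
Gria4: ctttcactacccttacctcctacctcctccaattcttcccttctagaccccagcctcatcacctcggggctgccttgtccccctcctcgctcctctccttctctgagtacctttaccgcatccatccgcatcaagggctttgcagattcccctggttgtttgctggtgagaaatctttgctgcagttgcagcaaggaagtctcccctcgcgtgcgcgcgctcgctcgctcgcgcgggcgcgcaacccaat
Grik3: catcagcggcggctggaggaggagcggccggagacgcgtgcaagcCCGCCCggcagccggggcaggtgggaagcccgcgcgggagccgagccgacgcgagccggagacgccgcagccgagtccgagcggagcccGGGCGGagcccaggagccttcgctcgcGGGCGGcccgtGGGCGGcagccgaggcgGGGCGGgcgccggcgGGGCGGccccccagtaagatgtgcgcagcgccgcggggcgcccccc
Grm2: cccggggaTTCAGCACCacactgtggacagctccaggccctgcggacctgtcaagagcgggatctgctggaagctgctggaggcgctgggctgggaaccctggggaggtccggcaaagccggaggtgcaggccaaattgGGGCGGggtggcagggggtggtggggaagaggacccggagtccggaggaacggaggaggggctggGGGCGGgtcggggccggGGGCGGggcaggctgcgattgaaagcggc

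The 4 promoters differ in composition. That of Gabrg1 is 35.6% G or C with 1 CpG and no GC box, and that of Gria4 is 58.8% with 16 CpG and no GC box. That of Grik3 is 82% G or C with 42 CpG and 6 GC boxes, and that of Grm2 is 71.2% with 16 CpG and 3 GC boxes. Over all 32851 promoters of the table, the median was 52.4% G or C and 6 CpG. A GC box was found in 32.7% of all promoters and in 20 of the 41 promoters listed for 33 of the receptor genes (48.8%). TATAAA was found in 12.4% of all promoters and in 4 of these 41. The REST half-site was found in 0.301% of all promoters and, among these 41, in that of Grm2. Among other receptor genes past the 1.3-fold limit, Gabra4, lower in affected offspring, had 2 GC boxes. Grin1, higher against unaffected, had none, while Gabbr2 and Grik5, also higher against unaffected, had 2 each. The 4 promoters shown therefore do not tell whether GC boxes go with direction, which was not tested. Such matches describe the letters of these windows, and binding was not measured.

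The level of the receptor genes was led by the GABA-B subunit Gabbr1 (chr17:37045960-37074914), at 91.0 FPKM in control, 87.6 in unaffected and 94.7 in affected fetuses. Among the next in abundance, between 22.2 and 39.6 FPKM, were Gria1 and Gria2 of the AMPA class, Grik5 of the kainate class, and Gabra5 of the GABA-A class. Summed over their subunits in control tissue, the GABA-A class stood at 147 FPKM, GABA-B at 101, AMPA at 87.6, kainate at 62.4 and NMDA at 21.9. FPKM are per length of exon, so levels of different genes may be set beside each other, though a low value over a very long transcript rests on the annotation of its ends.

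**Figure D1:**
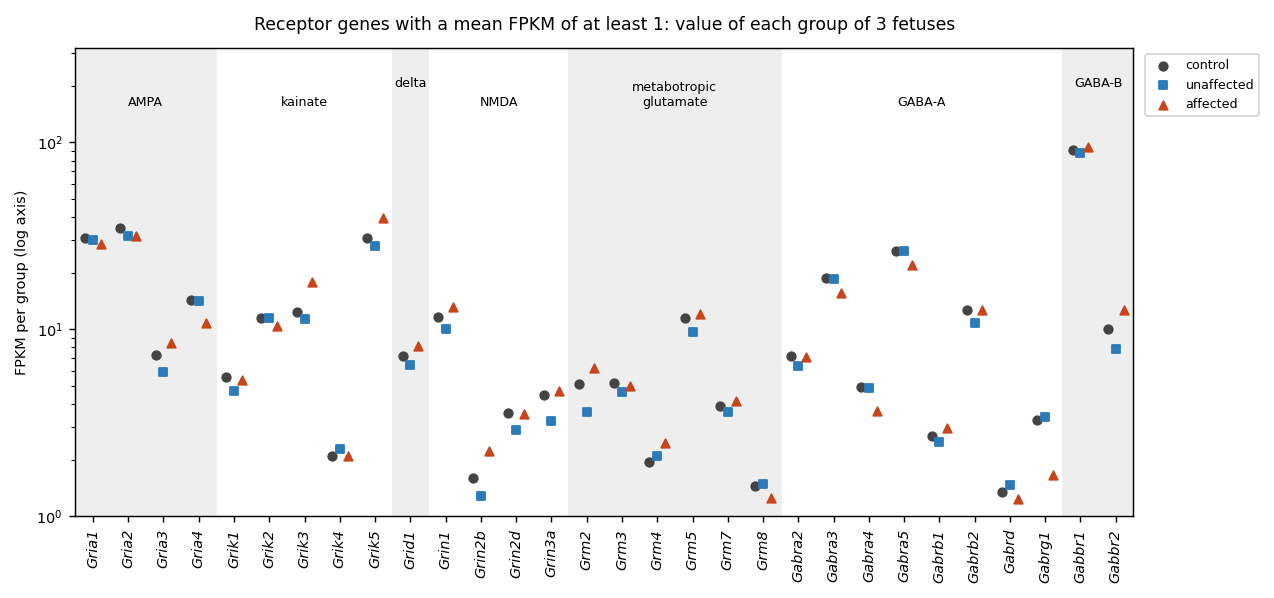
FPKM of 30 of the 34 receptor genes with a mean of at least 1, by class, on a log axis, with 1 point per group of 3 fetuses and no error, since the table holds 1 value per group. Gabbr1 is the most abundant gene in all 3 groups, and Gabrg1 and Grin2b are among the genes whose affected value stands apart from the others.

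In affected against control offspring, 2 of the 34 genes were higher by at least 1.3-fold and 4 were lower, where 8.59% and 8.35% of all 15548 loci were past these limits. The higher genes were Grik3 and Grin2b, and the lower ones included Gabrg1, Gabra4 and Gria4. Over the 34 genes the median on the log2 scale was -0.01, and over all loci it was 0.02. In affected against unaffected offspring, 8 genes were higher (16.3% of all loci) and 2 lower (14.3%). The higher genes were Grin2b, Grm2, Gabbr2, Grik3, Grin3a, Gria3, Grik5 and Grin1, and the lower ones Gabrg1 and Gabra4. Here the median was 0.20, against 0.01 over all loci. In unaffected against control offspring no gene was higher (4.39% of all loci) and 2 were lower, Grm2 and Grin3a (5.38%), with a median of -0.13 against 0.01. Among the 12666 loci with a gene name, fewer were past the limit. The shares higher and lower were 4.91% and 6.49% in affected against control, 12.5% and 13.3% in affected against unaffected, and 1.53% and 1.28% in unaffected against control offspring. The comparisons share groups, so a low value in unaffected tissue enters 2 of them with opposite signs. The unaffected value was the lowest of the 3 for 20 of the 34 genes, where it was lowest for 38.6% of all loci. At a stricter limit of 1.5-fold, no receptor gene was higher in affected than in control offspring (3.42% of all loci) and 1, Gabrg1, was lower (3.01%). Against unaffected offspring, 4 were higher (6.88%) and 1, again Gabrg1, was lower (4.91%). None was past 1.5-fold in unaffected against control offspring in either direction (2.46% and 3.08%).

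**Figure D2:**
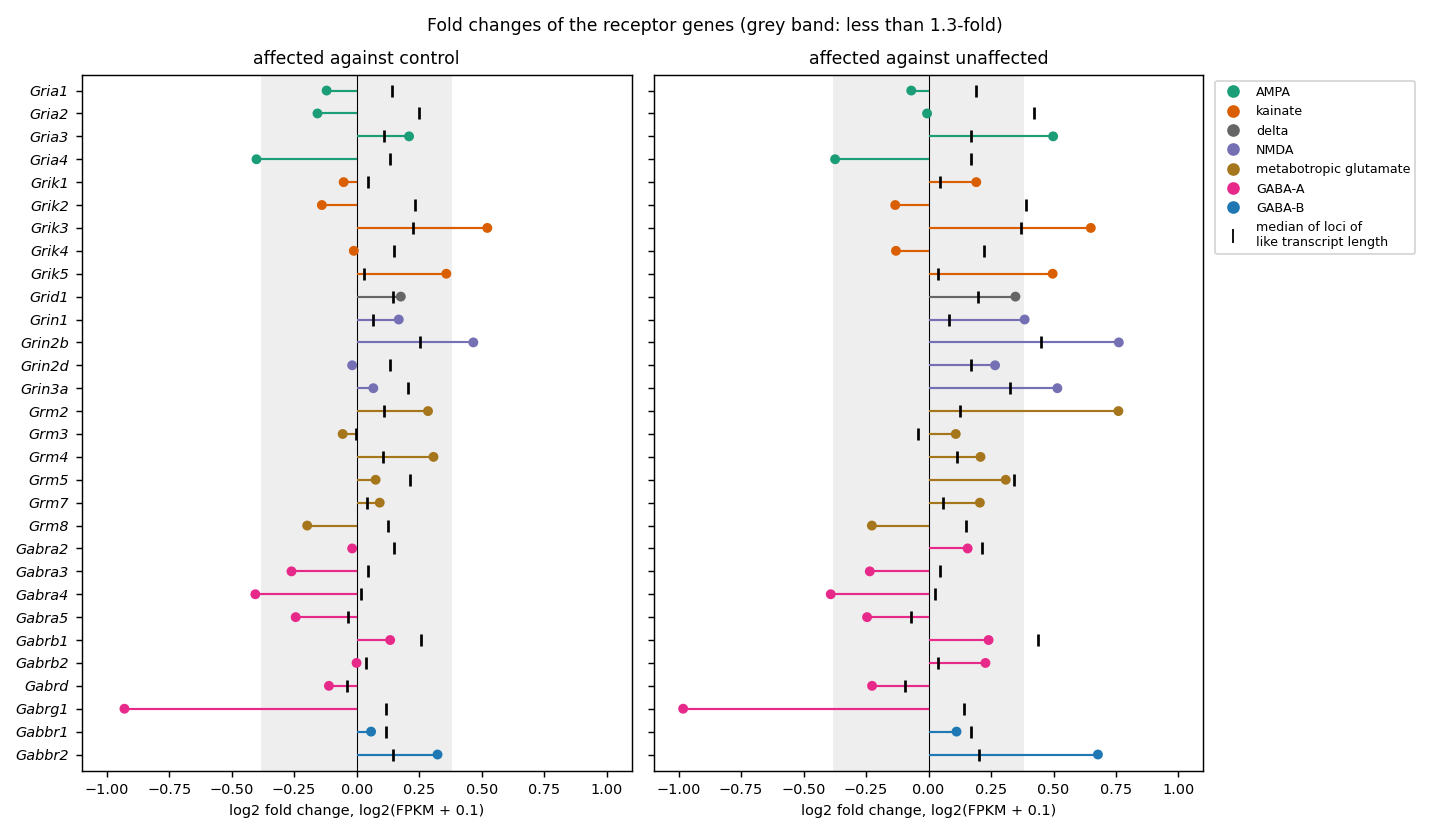
Log2 fold change of 30 of the 34 receptor genes in affected against control (left) and affected against unaffected offspring (right), coloured by class, with the grey band marking differences under 1.3-fold and the black tick the median of loci of like transcript length. Gabrg1 lies at -0.93 and -0.98, and in both panels the GABA-A alpha and gamma genes shown lie left of their ticks.

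Fold changes over all genes moved with transcript length, and the receptor transcripts are long. The median of the longest annotated transcript was 5227 nt for the 34 genes and 3432 nt for all named loci. Loci of up to 1500 nt had a median of -0.24 on the log2 scale for affected against control and of -0.36 for affected against unaffected, and among loci over 6000 nt it was 0.21 and 0.33. A value relative to length was therefore computed for each gene, as its fold change less the running median of 500 loci of like length. On that scale the median of the receptor genes was -0.11 against control and -0.01 against unaffected, so over all 34 genes the higher median against unaffected was not seen relative to loci of like length. It was still above 0 for the glutamate receptor genes alone, at 0.15. This did not hold for the AMPA genes among them, with a median of -0.34 and 3 of 4 below 0. The medians of the other glutamate receptor classes lay between 0.09 and 0.25. The source of the length trend was not tested, and RNA quality and depth were not measured here.

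**Figure D3:**
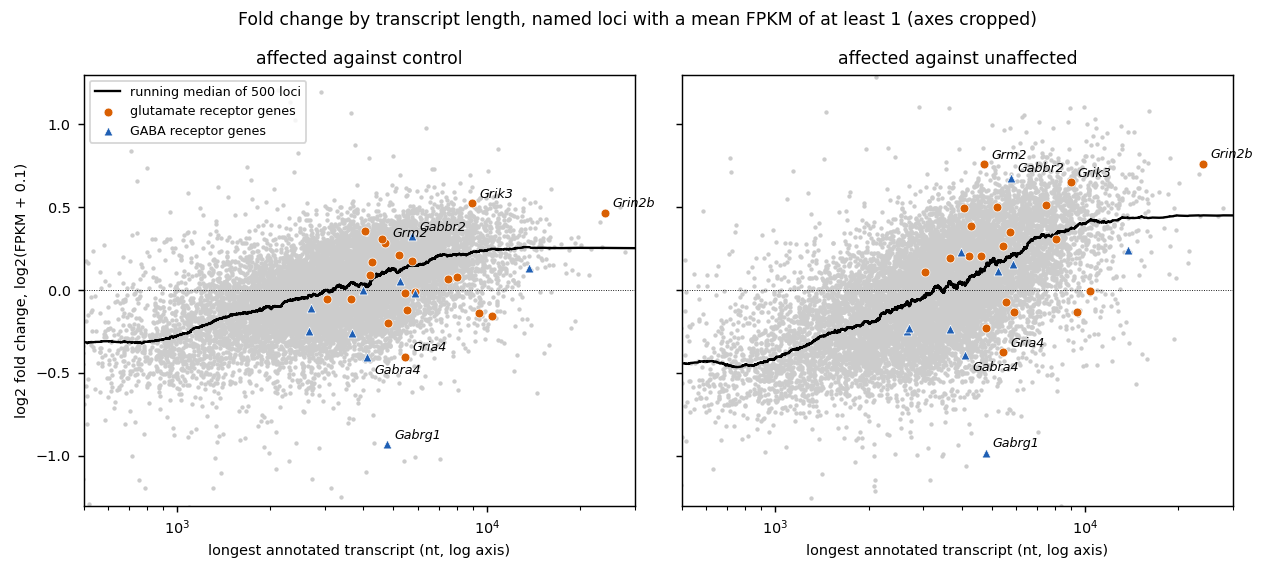
Log2 fold change against the longest annotated transcript (nt, log axis) for all named loci with a mean FPKM of at least 1 (grey), with the running median of 500 loci (black line), the glutamate receptor genes (circles) and the GABA receptor genes (triangles). The line climbs with length in both panels, and Gabrg1 lies far below it while Grin2b, at 24060 nt the longest receptor transcript labelled, lies above it.

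Among the AMPA receptor genes, which encode the pore-forming subunits GluA, Gria4 was lower in affected offspring, while Gria1 and Gria2 lay closer together between groups except relative to transcript length. Gria4 (chr9:4417893-4796234), a subunit that is prominent in the immature cortex, stood at 14.4 FPKM in control, 14.1 in unaffected and 10.9 in affected fetuses. The log2 difference from control was -0.40 and that from unaffected -0.37, the latter just under the 1.3-fold limit, and -0.53 and -0.54 relative to length. The control and unaffected values thus lay together and the affected value below them. Gria2, the most abundant of the class and the subunit that keeps the channel impermeable to calcium, stood at 35.0, 31.5 and 31.4 FPKM, with log2 fold changes of -0.16 and -0.01. Its transcript is longer, and relative to length these were -0.41 and -0.43, past the 1.3-fold limit as for Gria4. Gria1 stood at 31.0, 29.9 and 28.5 FPKM. The ratio of Gria2 to Gria4 came to 2.43 in control, 2.23 in unaffected and 2.89 in affected fetuses.

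Gria3 (chrX:41401304-41678601) went the other way, with 7.25 FPKM in control, 5.92 in unaffected and 8.41 in affected fetuses, and a log2 fold change of 0.50 against unaffected and 0.21 against control. Relative to length these were 0.33 and 0.10, both under the limit. It is X-linked, and the groups differed in sex-linked transcripts. Xist, the RNA made from the inactive X chromosome of females, stood at 9.24, 0.0210 and 10.3 FPKM, while the Y-linked Ddx3y stood at 2.66, 8.40 and 0.00906. The sex of the fetuses and the group cannot be told apart in any of the 3 comparisons, for Gria3 or any other gene. Without the X-linked genes, 7 of 32 receptor genes were higher and 2 lower in affected against unaffected offspring.

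The kainate receptor genes showed the largest shift in make-up among the glutamate receptors. Grik3 (chr4:125490831-125714173), a low-affinity subunit, stood at 12.4 FPKM in control, 11.4 in unaffected and 17.9 in affected fetuses. The log2 difference from control was 0.52 and that from unaffected 0.65, and 0.30 and 0.28 relative to length. Grik5 (chr7:25009851-25073278), a high-affinity subunit that needs a partner of the low-affinity group to form a working channel, stood at 30.8, 28.0 and 39.6 FPKM, with log2 fold changes of 0.36 and 0.50. Since its longest transcript is shorter, its values relative to length were close to these, at 0.33 and 0.46. For both genes the affected value was the highest and the unaffected value the lowest.

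Grik1, Grik2 and Grik4 did not share this. Grik2, the low-affinity subunit usually found with Grik5, stood at 11.5, 11.4 and 10.4 FPKM, which relative to length gave -0.37 against control and -0.52 against unaffected. Grik1 stood at 5.54, 4.67 and 5.34 FPKM, and Grik4 at 2.11, 2.30 and 2.09. The ratio of Grik3 to Grik2 came to 1.08 in control, 0.992 in unaffected and 1.71 in affected fetuses, and that of Grik5 to Grik2 was 2.68, 2.45 and 3.79. Grik2 made up 18.4%, 19.8% and 13.9% of the summed kainate FPKM, and Grik3 19.9%, 19.7% and 23.7%. The class sum was 62.4, 57.8 and 75.3 FPKM. Of the delta receptor genes, whose products bind cerebellins at synapses, Grid1 stood at 7.23, 6.41 and 8.18 FPKM.

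The NMDA receptor genes were highest in affected and lowest in unaffected offspring for Grin1, Grin2b and Grin3a. Grin2b (chr6:135729805-136173511), the glutamate-binding subunit that dominates before birth, stood at 1.60 FPKM in control, 1.28 in unaffected and 2.25 in affected fetuses. The log2 difference from control was 0.47 and that from unaffected 0.76, and 0.21 and 0.31 relative to length, under the 1.3-fold limit. Relative to the median transcript length they were 0.50 and 0.85, past it, so the length measure decides which side of the limit Grin2b takes. Its longest annotated transcript has 24060 nt, and its FPKM depends on how its ends were annotated, and exons of another gene lie on the opposite strand. Grin1 (chr2:25289911-25319163), the obligatory glycine-binding subunit and the most abundant of the class, stood at 11.7, 10.04 and 13.1 FPKM, with log2 fold changes of 0.17 and 0.38. The value against unaffected was just past the 1.3-fold limit, and fell under it relative to length (0.30), relative to the median transcript length (0.16), centred on all loci (0.37) or with a pseudocount of 1 (0.36). Grin1 overlaps the antisense gene Grin1os, and the counting is not stated to use strand, so reads of the pair cannot be told apart.

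Grin3a (chr4:49661611-49845769), a subunit that lowers calcium entry and is high in young neurons, stood at 4.48 FPKM in control, 3.25 in unaffected and 4.69 in affected fetuses. The unaffected value lay apart from the others, with a log2 fold change of -0.45 against control, and of 0.52 in affected against unaffected. Relative to length these were -0.34 and 0.19, both under the limit. Grin2d, found early in interneurons and the brainstem, stood at 3.56, 2.9 and 3.51 FPKM. Grin2a and Grin2c, which come on after birth, were low in all groups, at 0.132 to 0.171 and 0.203 to 0.251 FPKM. The ratio of Grin2b to Grin2a was 9.32, 9.71 and 14.3. Grin3b, at 0.230 to 0.249 FPKM, is uncertain, because its deposited locus spans 672.33 kb and 46 protein-coding genes.

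Among the metabotropic glutamate receptor genes, Grm2 differed most from the unaffected group. Grm2 (chr9:106644372-106656109), a presynaptic receptor coupled to Gi that restrains glutamate release, stood at 5.08 FPKM in control, 3.63 in unaffected and 6.22 in affected fetuses. Affected against unaffected offspring gave 0.76 on the log2 scale, unaffected against control -0.47 and affected against control 0.29. The affected and unaffected values thus lay on either side of the control value. Grm5, the most abundant of the class and coupled to Gq, stood at 11.4, 9.72 and 12.1 FPKM, with log2 fold changes of 0.08 and 0.31.

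The groups lay within 1.3-fold of each other in every comparison for Grm3, Grm7, Grm4 and Grm8. Grm3 stood at 5.18, 4.61 and 4.98 FPKM, Grm7 at 3.89, 3.59 and 4.16, and Grm4 at 1.96, 2.11 and 2.45. Grm8 had its lowest value in affected offspring, with 1.45, 1.48 and 1.25 FPKM. Grm6, a receptor of retinal bipolar cells, was listed at 0.00333 FPKM in control, at 0 in unaffected and at 0.00233 in affected offspring, too low for a fold to be read. Over all 21 glutamate receptor genes with a mean of at least 1, the medians on the log2 scale were 0.08 against control and 0.27 against unaffected, and relative to length they were -0.06 and 0.15. Of the 21 genes, 14 were above 0 against unaffected on that scale, where 6274 of the 12558 loci with a length were.

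**Figure D4:**
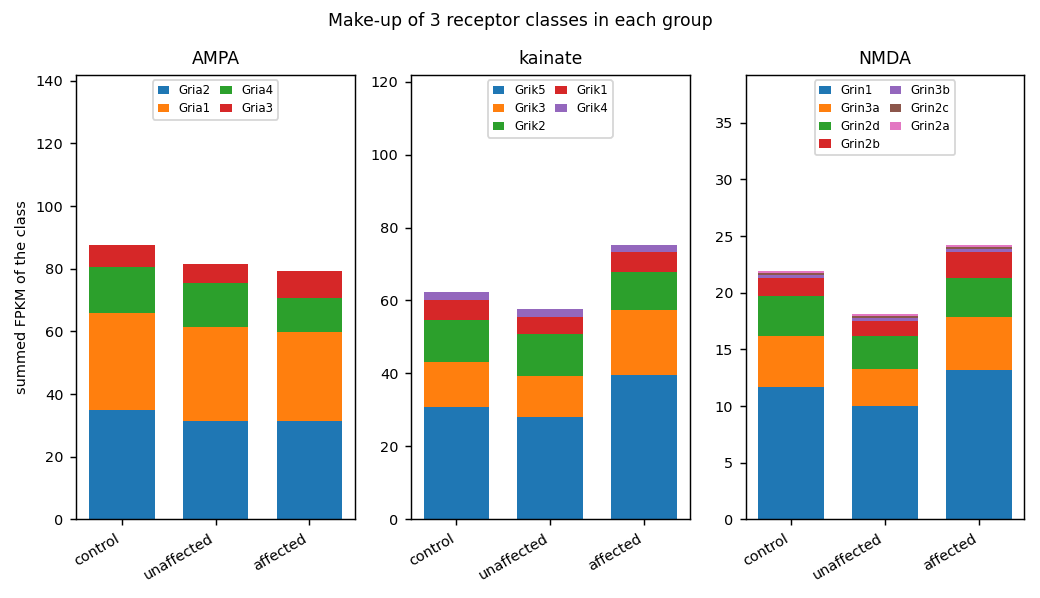
Summed FPKM of the subunits of the AMPA, kainate and NMDA receptor classes in control, unaffected and affected offspring, stacked by gene, with a bar for each group and an axis from 0 in each panel. The kainate sum is 75.3 FPKM in affected and 62.4 in control offspring, while the AMPA sum is lowest in affected offspring.

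Most alpha and gamma genes of the GABA-A receptors had lower values in affected offspring. All 7 alpha and gamma genes with a mean of at least 1 had a lower value in affected than in control offspring (median of -0.26 on the log2 scale), and 6 of the 7 were lower than in unaffected offspring, with a median of -0.24. Of all loci, 47% were below 0 in the first comparison and 48.7% in the second. Of the whole class of 11 GABA-A genes, 9 were below 0 in the first and 7 in the second. Gabrd was below 0 in both, at -0.11 and -0.23. The 3 beta genes lay between -0.0005 and 0.13 in the first, and between 0.23 and 0.24 in the second. The count of 7 of 7 thus depends on setting the beta genes apart, and it includes Gabra2 at -0.02. Summed, the alpha and gamma genes stood at 97.5 FPKM in control, 94.8 in unaffected and 80.9 in affected fetuses. Relative to length, all 7 alpha and gamma genes lay below 0 in both comparisons, but so did all 11 GABA-A genes against control and 9 of the 11 against unaffected, so on that scale the direction was shared by the class. Most of these differences were under 1.3-fold, and whether they exceed the spread between fetuses was not tested.

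Gabrg1 (chr5:70751047-70842617) had the largest difference of all the receptor genes. It encodes a gamma subunit found in a limited set of brain regions, and stood at 3.27 FPKM in control, 3.40 in unaffected and 1.67 in affected fetuses. The control and unaffected values lay together, and the affected value far below them. The log2 difference from control was -0.93 and that from unaffected -0.98, at the 1.23 and 1.18 percentile of all loci, and -1.05 and -1.12 relative to length. Gabrg3 lay under a mean of 1, at 0.870, 0.938 and 0.835 FPKM.

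Of the alpha genes, Gabra4 (chr5:71569734-71658308), a subunit of extrasynaptic receptors, stood at 4.89 FPKM in control, 4.85 in unaffected and 3.67 in affected fetuses, with log2 fold changes of -0.41 and -0.39. Its exons overlap those of the neighbouring Gabrb1 on the opposite strand, so its reads may be shared. In all, 7 of the 34 receptor genes have exons of another gene on the opposite strand (among them Grin1, Grin2b, Grin2d, Grm7, Gabra4 and Gabra5). Gabra5 and Gabra3, the most abundant alpha genes at this age, stood at 26.3, 26.3 and 22.2 FPKM and at 18.9, 18.5 and 15.7 FPKM. Gabra3 is X-linked. Gabra2 stood at 7.21, 6.38 and 7.12 FPKM.

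Of the beta genes, Gabrb2 stood at 12.7, 10.8 and 12.7 FPKM and Gabrb1 at 2.70, 2.50 and 2.98. Gabrd, a subunit of tonic extrasynaptic receptors, stood at 1.35, 1.47 and 1.24 FPKM. Gabra6, Gabre, Gabrp, Gabrq, Gabrr1, Gabrr2 and Gabrr3 were at 0.360 FPKM or less in every group, and Gabrp was listed at 0 in unaffected and Gabrr3 at 0 in control offspring.

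Many GABA-A genes lie in clusters, and neighbours within a cluster differed. On chromosome 5 the order is Gabrg1, Gabra2, Gabra4 and Gabrb1, with log2 fold changes against control of -0.93, -0.02, -0.41 and 0.13. Gabra2 thus lay close to 0 between neighbours past the limit. The beta gene is on the plus strand and the alpha and gamma genes are on the minus strand, so subunit type and strand cannot be told apart there.

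**Figure D5:**
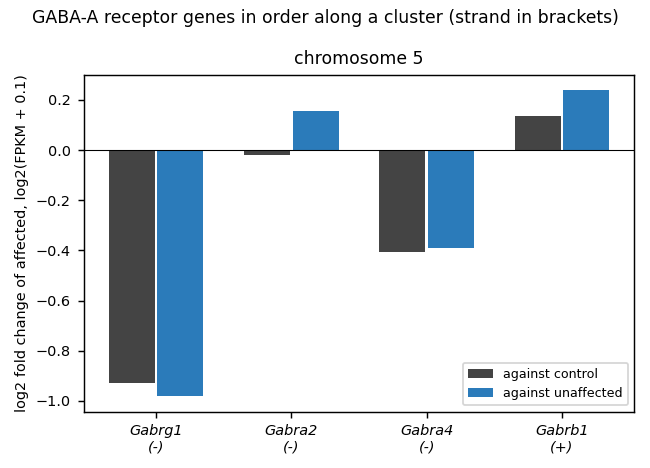
Log2 fold change (log2(FPKM + 0.1)) of affected against control (dark) and against unaffected offspring (blue) for the 4 GABA-A genes of the cluster on chromosome 5, in their order along it, with the strand in brackets. Gabrg1 and Gabra4 lie below 0 in both comparisons and Gabrb1 above 0 in both.

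The GABA-B receptor genes Gabbr1 and Gabbr2 encode the subunit that binds GABA and the subunit that couples to the G protein. Gabbr2 (chr4:46662299-46991897) stood at 10.1 FPKM in control, 7.85 in unaffected and 12.6 in affected fetuses, with log2 fold changes of 0.32 against control and 0.68 against unaffected, and 0.18 and 0.48 relative to length. Gabbr1 had log2 fold changes of 0.06 and 0.11. The ratio of Gabbr1 to Gabbr2 was 9.04, 11.2 and 7.51, so Gabbr2 was the scarcer transcript in every group.

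Proteins that work with these receptors were described from lists written from general knowledge, beside the share of all loci past the limit given above. Of 15 AMPA receptor auxiliary subunits, which set the gating and surface delivery of the channel, 1 was higher and none lower in affected against control, and 5 were higher and none lower against unaffected. Shisa6 was past the limit in both, at 2.21 FPKM in control, 1.73 in unaffected and 3.15 in affected fetuses, with log2 fold changes of 0.49 and 0.83. The others past it against unaffected were Shisa9 (0.59), Cacng2 (0.55), Prrt1 (0.51) and Shisa7 (0.50). Cnih2, by far the most abundant of this list, stood at 530, 546 and 490 FPKM. Of 8 kainate and delta receptor partners, 3 were higher against unaffected. Among them were the neurexin Nrxn2, which binds cerebellins from the presynaptic side (0.46), and the kainate auxiliary subunit Neto1 (0.45). The cerebellin Cbln2 was lower against control, at 10.6, 9.56 and 7.54 FPKM and a log2 fold change of -0.49.

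Of 10 GABA receptor partners with a mean of at least 1, none was past the limit against control, and Shisa7 and the adhesion protein of inhibitory synapses Nlgn2 (0.49) were higher against unaffected. Gphn, the scaffold gephyrin that holds GABA-A and glycine receptors at synapses, stood at 21.4 FPKM in control, 21.4 in unaffected and 21.7 in affected fetuses. Of 9 genes of glutamate synthesis and transport, the glial glutamate transporter Slc1a3 was lower against unaffected, at 79.7, 83.1 and 62.9 FPKM and a log2 fold change of -0.40. The most abundant was Glul, the glutamine synthetase of glia, at 113, 107 and 97.6 FPKM. Of 7 genes of GABA synthesis and transport, the GABA transporter Slc6a13, which is found in the meninges, was lower against control, at 8.36, 7.89 and 6.18 FPKM and a log2 fold change of -0.43. Gad1 and Gad2, the GABA-synthesising enzymes, stood at 23.2, 23.9 and 20.9 FPKM and at 11.8, 13.4 and 12.8 FPKM.

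Voltage-gated sodium, calcium and potassium channel genes were set beside the receptors as another family of membrane proteins of neurons. Of 45 such genes with a mean of at least 1, 36 were above and 9 below 0 in affected against control offspring, with a median of 0.19 on the log2 scale, where the receptor genes had 16 above and 18 below. Above 0 were 52.9% of all loci and 68.8% of the 2654 loci in the middle length range of the receptor genes, and relative to length 25 of the 45 channel genes were above and 20 below 0. Against unaffected offspring, 20 of the 45 channel genes were higher by at least 1.3-fold and none lower, with a median of 0.34. The shares higher and lower were 16.3% and 14.3% of all loci, and 16.4% and 3.69% of the loci in that length range. In unaffected against control offspring, 39 of the 45 and 28 of the 34 receptor genes were below 0, where 48.3% of all loci and 61.6% of the loci in that length range were. Relative to length, 35 of the 45 and 23 of the 34 were below 0. The channel medians relative to length were 0.04 against control and 0.13 against unaffected in affected offspring. The difference between the families was not tested.

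Cell type markers were read in the same group values, without a test. In bulk tissue, fewer cells of a type and less RNA per cell cannot be told apart. All 10 pan-neuronal markers were detected, with summed levels of 3520 FPKM in control, 3482 in unaffected and 3379 in affected fetuses. Of these sums, Stmn2 held 1003, 1027 and 800 FPKM. On the log2 scale 6 of the 10 were above and 4 below 0, both against control (median 0.08) and against unaffected (median 0.14). Against unaffected 3 were higher by at least 1.3-fold and none lower, where 16.3% and 14.3% of all loci were. Of the 9 markers of cortical projection neurons, 9 were above 0 against control (median 0.30, and 0.19 relative to length) and 8 against unaffected (median 0.51, and 0.34 relative to length), with sums of 864, 770 and 973 FPKM. The share of all loci above 0 was 52.9% and 51.2% in these comparisons. Of the 9 markers of GABAergic neurons, 8 were below 0 against unaffected (median -0.19), where 48.7% of all loci were, but 5 relative to length (median -0.10). Against control 4 were above and 5 below 0, and relative to length 6 above and 3 below. These markers summed to 710, 802 and 694 FPKM.

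Among 10 markers of progenitors, 8 were above 0 against control (median 0.28) and 6 against unaffected (median 0.16). Relative to length these counts were the same, with medians of 0.29 and 0.18. Fabp7, the most abundant of them, went the other way, at 2015 FPKM in control, 2151 in unaffected and 1352 in affected fetuses. Its transcript is short, at 880 nt, in the range where loci had medians of -0.24 and -0.36. Hes5 was below 0 as well, at -0.24 against control and -0.46 against unaffected. Pax6 and Hes1 were below 0 against unaffected only. The 9 genes other than Fabp7 summed to 437, 459 and 531 FPKM. Of 8 markers of astrocytes and the oligodendrocyte lineage, 3 were above and 5 below 0 against control. Slc1a3 stood at 79.7, 83.1 and 62.9 FPKM, and the other 7 summed to 56.2, 53.0 and 55.2 FPKM. The alpha globin loci, which mark blood, summed to 436, 567 and 352 FPKM. The other markers of blood, vessels, meninges and microglia summed to 153, 153 and 137 FPKM, and 4 of the 12 loci were above and 8 below 0 against control. On the log2 scale the vessel genes Pecam1 and Flt1 lay 0.26 and 0.28 above their control values and the vessel gene Cldn5 at -0.12. The microglial genes C1qa, Aif1 and Cx3cr1 stood at -0.43, -0.58 and -0.06. The transcripts of C1qa and Aif1 are short, at 1040 and 875 nt, and loci of up to 1500 nt had a median of -0.24. Relative to length, 5 of the 12 loci were above and 7 below 0 against control (median -0.03). Of 6 genes listed as thalamic markers, 4 had a mean of at least 1 FPKM. Of these, 2 were above and 2 below 0 against control (from -0.78 for Tcf7l2 to 0.37 for Prox1), and 4 above 0 against unaffected. Lhx2 and Prox1, the 2 above 0 against control, are not restricted to the thalamus. Tcf7l2 and Lhx9 lay at -0.78 and -0.01 against control, and at 0.06 and 0.16 against unaffected. The 6 summed to 122, 113 and 150 FPKM. Lhx2 held 110, 103 and 138 of this, so the sum does not measure thalamic tissue. The part of these values in the receptor differences was not tested.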

How the data were processed

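Gene expression was measured by RNA-seq (Illumina TruSeq RNA kit) in 3 groups of 3 fetuses, grouped by the labels. The labels' processing notes name Bowtie2 2.2.4.0, Cufflinks, Cuffdiff and the genome mm10, while the methods name STAR and Bowtie with TopHat. The deposited FPKM are 1 value per group and locus, made by the authors' software over 3 animals, so the number of columns of single animals was 0. The deposited table also holds the authors' fold changes, test statistics, p-values and q-values of the 3 comparisons, which were not used. Library depth in fragments was not used here, so no counting interval is given, and precision is limited by having 3 animals in a group.

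Fold changes were computed in Python 3.11.15 with pandas 2.3.3 and numpy 2.4.6 as differences of log2(FPKM + 0.1), which understates changes of low genes, for loci with a mean of at least 1 FPKM. A fold of 1.3 served as the limit. With 1 value per group, no replicate error, test or fit without single animals was computed here. Transcript lengths came from GENCODE M21 as the longest transcript of a gene, found for 12558 of 15548 loci (80.8%), and the running median took 500 loci. The scripts were tested on simulated data. Locus starts were counted from 0 in the table and are given from 1. The members and gene lists were chosen with earlier results of these data known. Named were the members, by class, apart from some single genes that are not reported here, the members of the lists past the limit and the most abundant of each list. Gabarap, in a locus with a joined name, and Hbb-bs, not matched, are not described. Promoters came from RefSeq and were found for 33 of the 48 genes. The alternatives were 9 chosen at the start and 2 added after the data were seen (the median transcript length, and leaving out X-linked genes).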

Additional observations from a re-analysis of the deposited data

How the results depend on the processing

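No paired analysis was possible because the table holds 1 value per group. The counts past the limit were small and moved with the settings. In affected against control offspring, the 2 higher genes became 1 with a pseudocount of 1 or a filter at 5 FPKM, and 0 at a 1.5-fold limit or relative to length. The 4 lower genes became 1 under each of that pseudocount, that filter and that limit. The median of -0.01 became -0.11 relative to length. In affected against unaffected offspring, the 8 higher genes became 5 with the filter at 5 FPKM, 4 at 1.5-fold, 3 relative to length and 5 relative to the median transcript length. The 2 lower genes became 1 with a pseudocount of 1 or at 1.5-fold, 0 with the filter at 5 FPKM, 4 without a filter, 5 relative to length and 4 relative to the median length. The median of 0.20 became 0.093 without a filter, -0.0056 relative to length and 0.041 relative to the median length. In unaffected against control offspring, the 0 higher genes became 1 without a filter, and the 2 lower genes became 1 with a pseudocount of 1 or relative to length, and 0 with the filter at 5 FPKM or at 1.5-fold. The cause of these shifts was not tested beyond the settings themselves. The other 73 values of these 9 results were within 1.5 times the main count or within 0.1 of the main median. That tolerance is wide for small medians, as -0.01 became -0.10 relative to the median length, and -0.13 became -0.06 relative to length and -0.07 without a filter. For single genes, 151 values kept their side of the limit, 35 no longer passed it, and 0 changed direction.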

Other observations

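Glycine receptors, chloride channels of the same protein family as GABA-A receptors, had 2 of 5 subunit genes with a mean of at least 1 FPKM. The alpha subunit gene Glra2, which is the main fetal form, stood at 39.2 FPKM in control, 39.1 in unaffected and 28.5 in affected fetuses, with log2 fold changes of -0.46 against control and -0.45 against unaffected. Glra2 is X-linked. Glrb, the beta subunit that binds gephyrin, stood at 16.0, 15.2 and 13.7 FPKM. As for Gabrg1 and Gria4, the control and unaffected values of Glra2 lay together and the affected value below them. Whether this exceeds the spread between fetuses was not tested.

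The chloride cotransporters decide whether these channels depolarise or inhibit. Slc12a2, which brings chloride into the cell, stood at 7.02 FPKM in control, 6.67 in unaffected and 7.59 in affected fetuses. Slc12a5, which extrudes it from mature neurons, stood at 6.34, 5.66 and 7.12 FPKM. The ratio of Slc12a2 to Slc12a5 was 1.11, 1.18 and 1.07, and none of the 3 cotransporter genes was past 1.3-fold in affected against control or unaffected offspring.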
